A study of Mus musculus with 2 samples.

Results

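Chemokines are small secreted proteins that draw leukocytes and some stromal cells along a gradient. The CC, CXC and CX3C ligands are named for the spacing of their first cysteines, and most act through G protein-coupled receptors with a matching name. Atypical receptors bind the same ligands without coupling to G proteins and take them up from the tissue. In the newborn lung, alveoli form while resident macrophages settle and circulating leukocytes enter, so ligand sources and receptor-bearing cells lie side by side in the same tissue. The genes described here are 38 members of this system, chosen by symbol: 23 ligands and 15 receptors, of which 12 are signalling receptors and 3 are the atypical receptors Ackr3, Ackr4 and Ccrl2. All 38 had a row among the 17758 genes of the single-cell table, and 37 had a row among the 16906 genes of the bulk table, where Ccr3 had none.

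The 2 libraries compared were each from mouse peripheral lung at postnatal day 3 and each described as control. The single-cell library came from sorted cells of wild type lung on a droplet platform that reads the 3′ end of transcripts; the sorting gate and the number of mice were not given in the sources used here. The bulk library came from sorted PDGFRA-positive cells of Pdgfra-H2BGFP lung, a reporter line in which cells that transcribe Pdgfra, the gene for platelet-derived growth factor receptor alpha, carry a green nucleus; in the lung this gene marks fibroblasts and myofibroblasts. The study concerned autonomic nerves and myofibroblasts in alveolar formation, and no purpose was stated for chemokines. The deposited single-cell values look corrected for sequencing depth, so cells and classes are compared on that scale. With 1 sample in each of 2 groups, no difference below has a replicate check and none was tested; the order of classes with close levels is that of these cells only.

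After a limit on mitochondrial transcripts and removal of 461 predicted doublets, 10199 of 11306 cells were kept and fell into 35 clusters. These gave 26 classes: 25 named from marker genes, written as "-like", and 1 myeloid class led by Adamdec1 and Mmp12 that stayed unnamed. Of the kept cells, 41.3% were myeloid, 22.0% lymphoid, 20.5% mesenchymal, 9.74% endothelial and 4.54% epithelial, and 1.80% were in no class. The median number of detected genes per class lay between 1005 in mature neutrophil-like cells and 3205.5 in ciliated-like cells. In the bulk library, 171910584 reads were assigned to genes and Pdgfra stood at 184 CPM, that is, its reads scaled to a library total of 1000000. Levels in the single-cell library are also given in CPM, from a gene's values summed over all cells of the class, with each class brought to that same total. Shares are cells with at least 1 transcript of the gene, with exact 95% Clopper-Pearson intervals that cover counting error only. For a share of 0 the limit given is 3 cells of the class in place of an interval, and it limits cells with a transcript, not cells that express the gene. To show what free RNA or misassigned cells can give, the share in alveolar type 2-like cells (median 2202.5 detected genes) or in B cell-like cells (median 1525) is given with the shares.

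Transcripts of this system lay mostly in immune cells, and 9 members were highest elsewhere. Of the 38 genes, 29 had their highest class level in an immune class (16 of 23 ligands and 13 of 15 receptors), against 31.9% of the 15384 genes with at least 20 summed values. Pooled immune cells had at least a 2-fold higher level than pooled other cells for 26 genes (68.4%), against 11.8% of all genes, and at least a 2-fold lower level for 7 genes (18.4%), against 30.9%. The 7 were the ligands Ccl11, Ccl21a, Cxcl12, Cxcl13 and Cxcl15 and the atypical receptors Ackr3 and Ackr4. The 5 genes between these limits were Cxcl1, Cxcl9, Cxcl14, Cxcl16 and Cx3cl1, all ligands. The median log2 ratio of immune over other cells was 1.45 for ligands and 2.76 for receptors, beside −0.46 for all genes. Many members were also narrow: 16 of 38 (42.1%) stood at least 4-fold above the class next in order, against 7.20% of all genes.

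**Figure D1:**
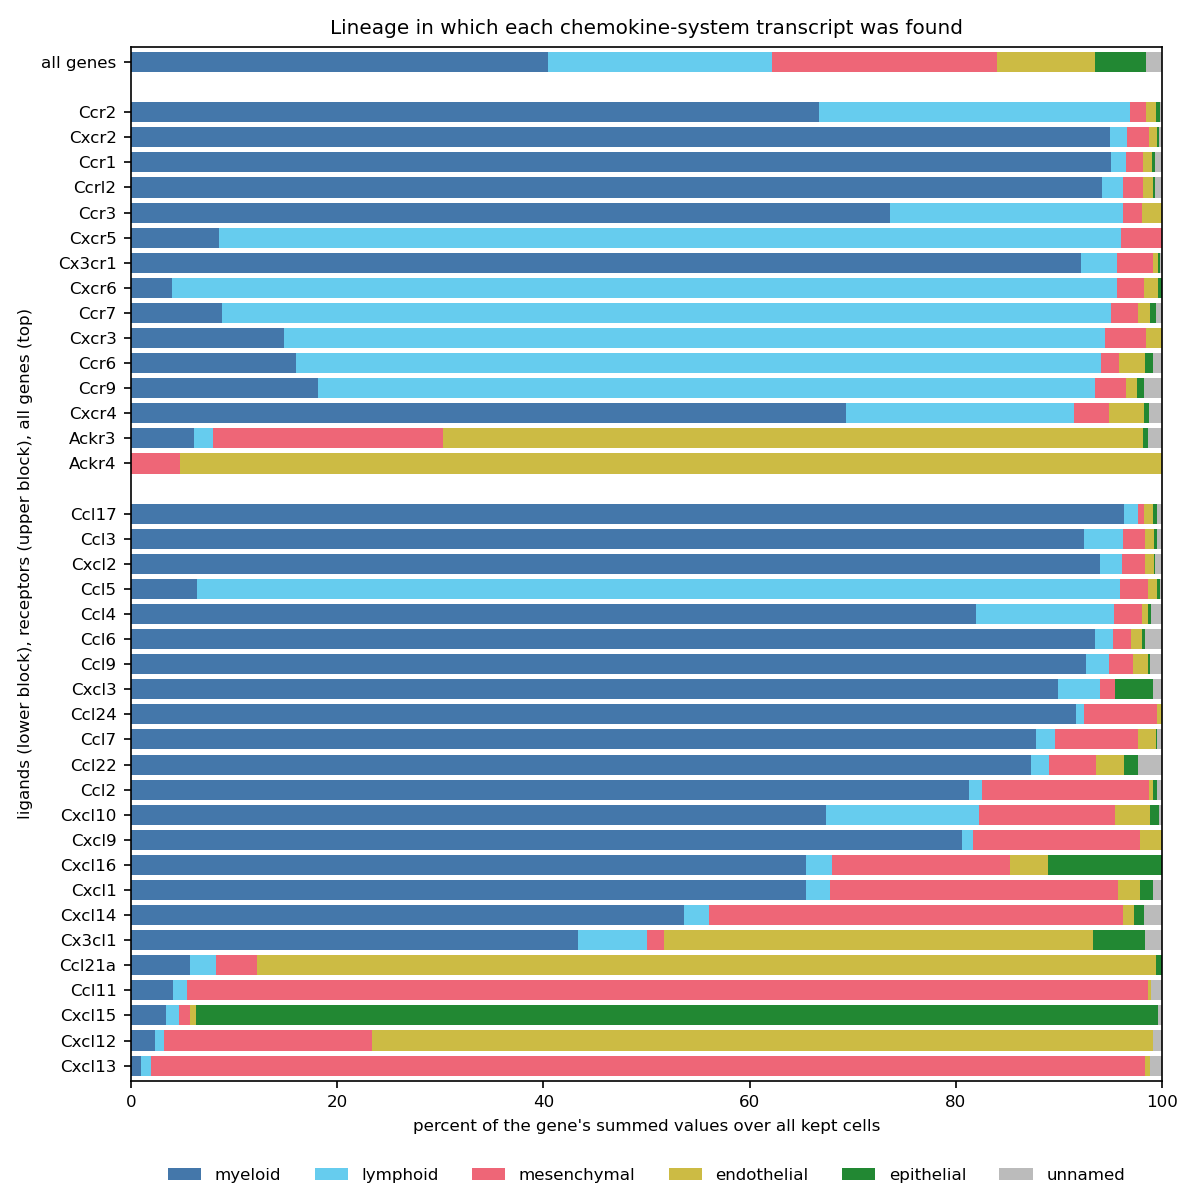
Percent of each gene's summed single-cell values found in myeloid, lymphoid, mesenchymal, endothelial, epithelial and unassigned cells, with ligands in the lower block, receptors in the upper block and all genes together in the top bar. Myeloid cells held 40.4% and lymphoid cells 21.8% of the values of all genes, while Cxcl13, Cxcl12, Cxcl15, Ccl11 and Ccl21a among the ligands and Ackr4 and Ackr3 among the receptors lay mostly outside both.

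Interstitial macrophage-like cells, 163 cells led by complement C1q genes, held the monocyte attractants. Ccl2, which acts on CCR2, stood at 1400 CPM there, with transcripts in 50.9% of the cells (43.0 to 58.8%). The class next in order, mesothelial-like cells, had 59.3 CPM, and myofibroblast-like cells had 44.5 CPM with 7.90% of cells positive. This small class, 1.60% of the kept cells, held 67.3% of all Ccl2 values. Ccl7, which lies next to Ccl2 and acts on overlapping receptors, followed the same order: 781 CPM and 40.5% of interstitial macrophage-like cells (32.9 to 48.4%), then 41.3 CPM in basophil or mast-like cells. The pair lay largely in the same cells. Of 83 interstitial macrophage-like cells with Ccl2, 60 also had Ccl7 (72.3%), whereas 7.50% of those without Ccl2 had it, at medians of 2427 and 2396 detected genes. Ccl24, an eosinophil attractant, stood at 270 CPM in the same class, in 39.3% of its cells, and at 36.4 CPM in classical monocyte-like cells. These values depended on where the class ended. At a resolution of 0.5, with a stricter cell filter and with the members among the variable genes, the class held 422, 324 and 401 cells, Ccl2 stood between 532 and 619 CPM in 20.9 to 22.3% of them, and Ccl7 between 305 and 372 CPM. In the last 2 of these settings Ccl2 was highest, at 785 and 751 CPM, in a cluster led by Prg4 and Fcna. In alveolar type 2-like cells the shares were 1.24% for Ccl2, 0.248% for Ccl7 and 0 of 404 cells for Ccl24, which allows a share of up to 0.743%. Ccl2 and Ccl7 lie on the plus strand of chromosome 11 in mm10, at 82035571 to 82037453 and 82045712 to 82047525, with Ccl11 next to them at 82057823 to 82062955.

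The neutrophil-attracting ligands Cxcl1, Cxcl2 and Cxcl3, which act through CXCR2, were also highest in interstitial macrophage-like cells but differed in how far they spread. Cxcl1 had 1440 CPM there, followed by 474 CPM in adventitial fibroblast-like cells and 230 CPM in smooth muscle-like cells, in 54.6%, 37.1% and 41.1% of the cells. Under 3 alternatives (a resolution of 2, a stricter cell filter and the members among the variable genes) the cluster led by Prg4 and Fcna stood apart and had the highest Cxcl1, at 4835 to 4991 CPM. In the interstitial macrophage-like cells Cxcl1 was then 312 to 674 CPM, Cxcl2 2216 to 3789 CPM and Ccl24 67.4 to 189 CPM. At a resolution of 0.5, Cxcl1 was 650 CPM there, and Cxcl2 and Cxcl3 were highest in mature neutrophil-like cells. Over all immune and all other cells, Cxcl1 stood at 107 and 84.6 CPM. Cxcl2 was a leukocyte transcript: 6023 CPM in interstitial macrophage-like cells, 4553 CPM in mature neutrophil-like cells, where 96.0% of 1078 cells had it, and 1445 CPM in alveolar macrophage-like cells. Mature neutrophil-like cells held 40.9% of all Cxcl2 values. Cxcl3 was sparse, at 52.8 CPM in interstitial macrophage-like and 23.6 CPM in mature neutrophil-like cells. Among interstitial macrophage-like cells with Cxcl1, 94.4% also had Cxcl2, against 63.5% of those without. Alveolar type 2-like cells had Cxcl1 in 9.90% of cells (7.17 to 13.2%), Cxcl2 in 10.4% and Cxcl3 in 1.98%, so shares of that order cannot be told apart from background. B cell-like cells had Cxcl2 in 21.7% of cells. Immediate-early and stress genes, which tissue dissociation can raise, varied across the same classes. The summed level of 14 such genes was 14490 CPM in mature neutrophil-like, 11995 in smooth muscle-like, 8555 in adventitial fibroblast-like and 8463 in interstitial macrophage-like cells. Over all classes the sum ranged from 1518 CPM in T cell-like to 19345 CPM in ciliated-like cells. Nfkbia alone gave 6747 CPM of the sum in mature neutrophil-like cells. The part of these 14 genes in the Cxcl1 and Cxcl2 levels was not tested.

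These genes sit together on the plus strand of chromosome 5, and Cxcl15 lies between them, 8433 bases from Cxcl3 by the RefSeq starts. Its transcripts were found in alveolar type 2-like cells, as given further on. Stretches of the promoters of these genes and of Cxcl15 are shown side by side, as a description of letters. The sequences are RefSeq's for GRCm38.p6, from 120 to 31 bases before each start, 5′ to 3′ on the plus strand. Capitals mark GGGAATTTCCC, the longest run of letters that the Cxcl1, Cxcl2 and Cxcl3 stretches share, which has the form of a site that NF-κB proteins are known to bind.
Cxcl3, chr5:90785981-90786070: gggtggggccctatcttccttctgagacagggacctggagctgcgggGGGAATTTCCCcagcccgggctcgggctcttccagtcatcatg
Cxcl15, chr5:90794414-90794503: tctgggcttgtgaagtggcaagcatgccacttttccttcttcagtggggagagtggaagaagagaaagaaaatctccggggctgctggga
Cxcl1, chr5:90891125-90891214: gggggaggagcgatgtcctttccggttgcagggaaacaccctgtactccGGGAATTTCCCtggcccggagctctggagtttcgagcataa
Cxcl2, chr5:90903779-90903868: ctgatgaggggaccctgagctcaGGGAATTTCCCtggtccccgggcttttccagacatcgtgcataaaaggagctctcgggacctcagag
This run began 71 bases before the start of Cxcl1, 97 before that of Cxcl2 and 73 before that of Cxcl3, each time on the plus strand, and did not occur in the Cxcl15 window. Searched on both strands, it was in this window for 0.0296% of 27025 symbols, and in the full 250 bases before the start for 0.0518%. Promoters were at hand for 29 of the 38 members, and among them Cxcl1, Cxcl2 and Cxcl3 had it within 250 bases. The run was taken from these 3 promoters, so its presence in them is given by its choice, and a match is a description of letters. Only exact matches were searched, and a link between this run and the source cells of these genes or of Cxcl15 was not tested.

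Basophil or mast-like cells, 152 in all, carried the highest levels of 3 further CC ligands. Ccl3 and Ccl4, which attract monocytes and lymphocytes, stood at 1525 and 3228 CPM, against 384 and 636 CPM in interstitial macrophage-like cells. Over the whole class, 108 of the 119 cells with Ccl3 also had Ccl4, against 24.2% of the cells without Ccl3. The cells without Ccl3 include all 23 cells of the Tpsb2-led cluster described below, so this contrast mixes 2 clusters. It was not computed within either cluster. Ccl9, a myeloid attractant, stood at 2055 CPM and at 448 CPM in alveolar macrophage-like cells, which held 49.5% of its values. With the members among the variable genes the class held 332 cells, and Ccl3, Ccl4 and Ccl9 were 758, 1627 and 1055 CPM, in 37.0%, 36.7% and 45.5% of cells. These levels came from 1 of the 2 clusters in the class. In its 129 cells led by the basophil protease gene Mcpt8, Ccl3 was in 92.2%, Ccl4 in 88.4% and Ccl9 in 100%. In the 23 cells led by the mast cell protease gene Tpsb2, the shares were 0 of 23 cells for Ccl3 (allowing up to 13.04%), 8.70% for Ccl4 and 4.35% for Ccl9, with medians of 1264 and 1048 detected genes. The Tpsb2-led cells had more Ccl7, 212 against 13.1 CPM, in 17.4% of cells (4.95 to 38.8%). Natural killer-like cells had Ccl4 at 262 CPM in 30.3% of cells, and alveolar type 2-like cells had it in 1.98%.

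Ccl6, a myeloid ligand found in rodents, was the broadest ligand. Alveolar macrophage-like cells had 4289 CPM with 99.8% of 1373 cells positive, basophil or mast-like cells had 3945 CPM, and mature neutrophil-like cells had 2456 CPM with 99.5% positive. The step between the leading classes was 1.09-fold. Alveolar type 2-like cells had it in 11.9% of cells (8.89 to 15.4%) and B cell-like cells in 31.0%. In contrast, Ccl5, a ligand of CCR1 and CCR3, was concentrated in natural killer-like cells, with 14666 CPM, 93.0% of 469 cells and 86.5% of all its values. Conventional dendritic-like cells followed at 969 CPM, where 16.3% of the cells had it. The share was 4.95% in alveolar type 2-like and 19.1% in B cell-like cells.

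Conventional dendritic-like cells (129) were the main place of the CCR4 ligands. Ccl17 stood at 559 CPM in 21.7% of the cells (14.9 to 29.8%) and 93.8% of its values lay there; no other class exceeded 5.01 CPM. Ccl22 stood at 218 CPM in 22.5% of the cells, and no other class exceeded 2.99 CPM. The shares in alveolar type 2-like cells were 0.248% and 0.495%. At a resolution of 0.5, where the class held 225 cells, Ccl17 was 359 CPM, Ccl22 143 CPM and Cxcl16 195 CPM. Ccl22 was found in 50.0% of the cells with Ccl17 and in 14.9% of those without. Both genes lie on chromosome 8, Ccl22 at 94745590 to 94751699 and Ccl17 at 94810453 to 94812036, with Cx3cl1 between them at 94772009 to 94782427. Cx3cl1 did not share their place, as its highest level was in aerocyte capillary endothelial-like cells. Cxcl16, a membrane-anchored ligand of CXCR6, was shared by conventional dendritic-like (305 CPM, 70.5%), interstitial macrophage-like (243 CPM, 65.6%) and alveolar type 1-like cells (156 CPM, 57.1% of 35 cells). Alveolar type 2-like cells also had it in 15.8% of cells.

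The interferon-inducible CXCR3 ligands differed from each other. Cxcl9, with 93 summed values in 28 cells, was highest in conventional dendritic-like cells at 42.1 CPM, with 30.4 CPM in interstitial macrophage-like cells. Cxcl10 had no clear source: gamma delta T or group 2 innate lymphoid-like cells had 144 CPM, interstitial macrophage-like 124, mature neutrophil-like 120 and immature neutrophil-like 99.4 CPM, with shares between 10.3% and 19.7%. In alveolar type 2-like cells Cxcl10 was in 2.23% of cells and Cxcl9 in 0 of 404, which allows a share of up to 0.743%. In GENCODE M21, genes on the opposite strand overlap exons of Cxcl10 (Art3), Cxcl16 (Zmynd15), Cxcr5 (Bcl9l), Ackr4 (Acad11) and Cx3cr1 (Gm33858), and genes on both strands overlap those of Ccr9. Reads of such pairs could be mixed where counting ignored the strand. Zmynd15 was itself among the 10 leading genes of the conventional dendritic-like cluster.

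**Figure D2:**
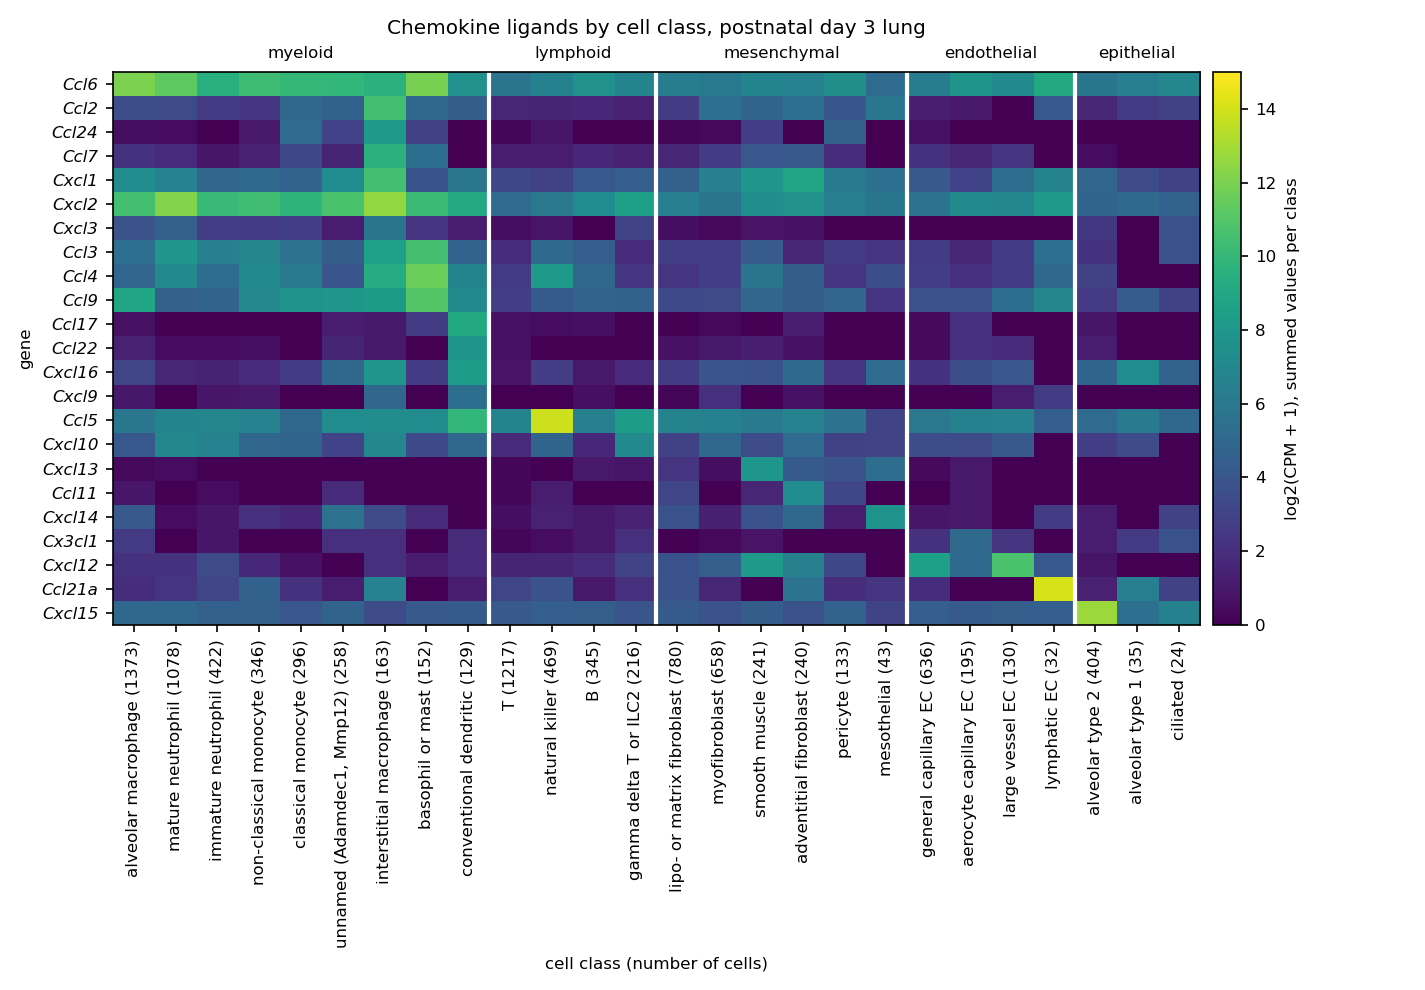
Heat map of the 23 ligands (rows) by cell class (columns, with the number of cells), coloured by log2(CPM + 1) of the class sums. Bright tiles mark Ccl5 in natural killer-like cells at 14666 CPM, Ccl21a in lymphatic endothelial-like cells at 17491 CPM and Cxcl15 in alveolar type 2-like cells at 6979 CPM, while Ccl6 and Cxcl2 run across the myeloid columns.

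Ccl11 and Cxcl13 were mesenchymal ligands, and Cxcl14 was divided between mesenchymal and myeloid cells. Ccl11, or eotaxin, which acts on CCR3, was placed in adventitial fibroblast-like cells: 157 CPM in 33.3% of 240 cells, then 8.11 CPM in pericyte-like and 7.86 CPM in lipofibroblast or matrix fibroblast-like cells, with 0 of 345 B cell-like cells, which allows a share of up to 0.870%. At a resolution of 2, Ccl11 in a class of 143 adventitial fibroblast-like cells was 242 CPM. Cxcl13, the CXCR5 ligand that organises B cell follicles, was highest in smooth muscle-like cells at 239 CPM in 45.6% of 241 cells (39.2 to 52.2%), which held 80.7% of its values. Mesothelial-like cells followed at 40.8 CPM. For Cxcl14, a ligand of epithelia and stroma, the 43 mesothelial-like cells led with 200 CPM in 46.5% (31.2 to 62.3%), with 49.9 CPM in the unnamed Adamdec1-led myeloid class. Myeloid cells held 53.7% and mesenchymal cells 40.1% of its values, and pooled immune and other cells had 7.16 and 9.21 CPM. B cell-like cells had Cxcl13 and Cxcl14 in 0.290% of cells each.

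Cxcl12, the CXCR4 ligand that retains haematopoietic and immune cells, lay in endothelial (75.7% of its values) and mesenchymal cells (20.2%). Large vessel endothelial-like cells had 1669 CPM, general capillary endothelial-like cells 366, smooth muscle-like cells 278 and adventitial fibroblast-like cells 93.3 CPM, against 3.11 CPM over all immune cells. B cell-like cells had Cxcl12 in 1.16% of cells, and alveolar type 2-like cells had Ackr3 in 0.743%. The large vessel level came from 1 of its 2 clusters. In 47 cells led by Dkk2, with the arterial gap junction gene Gja5 among the leading genes, all cells had Cxcl12, at 4629 CPM. In 83 cells led by Vwf, with Vegfc among the leading genes, the level was 4.13 CPM in 1.20% of cells. Ackr3, the atypical receptor that scavenges CXCL12, had the opposite order: 566 CPM in 80.7% of the Vwf-led cells and 25.7 CPM in 14.9% of the Dkk2-led cells. Median detected genes were 2472 and 2475. Of the 48 large vessel endothelial-like cells with Cxcl12, 8 also had Ackr3 (16.7%), against 80.5% of those without. With clustering at a resolution of 0.5, Cxcl12 was highest in general capillary endothelial-like cells at 649 CPM, and the large vessel class, then 81 cells, had 4.24 CPM, with Ackr3 at 580 CPM. Among smooth muscle-like cells, Cxcl12 was in 60.2% and Cxcl13 in 45.6%, and 77 of 241 cells had both.

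Ccl21a, which guides CCR7-bearing cells into lymphatics, was in all 32 lymphatic endothelial-like cells at 17491 CPM. No other class exceeded 98.4 CPM, and B cell-like cells had it in 0.580% of cells. Near-identical genes (Ccl21b and Ccl21c) exist, neither had a row here, and reads from them could have been counted as Ccl21a. Cx3cl1, the membrane-bound fractalkine, was low everywhere: 34.9 CPM in 12.3% of 195 aerocyte capillary endothelial-like cells, then 12.9 CPM from 2 summed values in ciliated-like cells, with a share of 0.580% in B cell-like cells. Endothelial cells held 41.7% of its values and myeloid cells 43.3%. Cxcl15, or lungkine, was the epithelial ligand. Alveolar type 2-like cells had 6979 CPM in 98.8% of 404 cells and 93.2% of its values, followed by 96.5 CPM in ciliated-like cells. Its share in B cell-like cells was 9.86% (6.92 to 13.5%) at a low level, so the other classes cannot be told apart from background by their shares.

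Neutrophils carried 4 of the receptor maxima. Mature neutrophil-like cells had Cxcr2 at 421 CPM, with 254 CPM in immature neutrophil-like cells and 96.7 CPM in non-classical monocyte-like cells. The share of cells with Cxcr2 ran the other way, 55.8% of mature (52.7 to 58.7%) and 64.0% of immature neutrophil-like cells (59.2 to 68.6%), at medians of 1005 and 1152.5 detected genes, so no order is drawn. Cxcr4, which holds neutrophils in marrow and marks aged cells, had 191 CPM in mature neutrophil-like cells, 122 in non-classical monocyte-like and 111 in basophil or mast-like cells, and 31.7% of mature neutrophil-like cells had it. Cxcr4 was in 32.3% of mature neutrophil-like cells with Cxcr2 and in 31.0% of those without. Ccrl2, an atypical receptor that binds chemerin, had 4606 CPM in 95.3% of mature neutrophil-like cells, 1183 CPM in immature neutrophil-like and 1117 CPM in non-classical monocyte-like cells. Ccr1, a receptor for CCL3, CCL5, CCL6 and CCL9, had 443 CPM in mature neutrophil-like cells but spread through the myeloid classes, with 178 to 243 CPM in the next 4. In alveolar type 2-like cells the shares were 1.24% for Cxcr2, 2.97% for Cxcr4, 4.46% for Ccrl2 and 0.743% for Ccr1.

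Among monocyte and macrophage classes, Ccr2 was highest in classical monocyte-like and Cx3cr1 in interstitial macrophage-like cells. Ccr2, which brings inflammatory monocytes out of marrow, stood at 368 CPM in 80.7% of 296 classical monocyte-like cells. Conventional dendritic-like cells (259 CPM), gamma delta T or group 2 innate lymphoid-like cells (256 CPM) and the unnamed Adamdec1-led class (253 CPM) came next and lay close together. Cx3cr1, the fractalkine receptor of patrolling monocytes and tissue macrophages, stood at 637 CPM in 70.6% of interstitial macrophage-like cells and 220 CPM in 62.1% of 346 non-classical monocyte-like cells, against 69.9 CPM in classical monocyte-like cells. Ccr3, the eotaxin receptor, had 53 summed values and was highest in basophil or mast-like cells at 27.5 CPM, where 15 of 152 cells had it, all in the Mcpt8-led cluster. At a resolution of 0.5, with a stricter cell filter and with the members among the variable genes, Cx3cr1 in interstitial macrophage-like cells was 299 to 315 CPM in 45.5 to 48.4% of cells, and in the last of these Ccr3 was 13.6 CPM. Alveolar type 2-like cells had Ccr2 in 1.98% and Cx3cr1 in 0.743% of cells, and Ccr3 in 0 of 404, which allows a share of up to 0.743%.

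Lymphoid classes divided the remaining receptors. Ccr7, which directs naive lymphocytes to lymph nodes, stood at 855 CPM in 88.2% of 1217 T cell-like cells, 408 CPM in 64.9% of B cell-like cells and 313 CPM in 30.2% of conventional dendritic-like cells. Cxcr5, the follicle-homing receptor, was in 24.6% of B cell-like cells at 62.4 CPM, and no other class exceeded 4.08 CPM. Of the 85 B cell-like cells with Cxcr5, 82.4% had Ccr7, against 59.2% of the others, with medians of 1907 and 1441.5 detected genes. Cxcr6, a tissue-residence receptor, stood at 492 CPM in 74.1% of 216 gamma delta T or group 2 innate lymphoid-like cells and at 75.4 CPM in natural killer-like cells. The same class had the highest Ccr9 (71.8 CPM), Cxcr3 (60.4 CPM) and Ccr6 (33.4 CPM), though the classes next in order were within 1.51-fold: conventional dendritic-like cells for Ccr9, natural killer-like cells for Cxcr3 and B cell-like cells for Ccr6. T cell-like cells fell into a cluster of 935 cells and a cluster of 282 cells with Foxp3 and cell-cycle genes, and Cxcr6 was in 0.856% of the first and 14.9% of the second, while Ccr7 was in 92.0% and 75.5%. This order of Ccr7 depended on the clustering. At a resolution of 2 and with a stricter cell filter, an unnamed cluster led by Foxp3 and Tnfrsf4 had the highest Ccr7. Its levels were 894 and 852 CPM, against 805 and 829 CPM in T cell-like cells. In alveolar type 2-like cells, Ccr7 was in 2.97% and the other lymphoid receptors in 0.743% or fewer.

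The atypical receptors Ackr3 and Ackr4 stood outside the immune classes. Ackr3 had 372 CPM in large vessel endothelial-like cells, 94.0 in general capillary, 71.8 in aerocyte capillary endothelial-like and 60.6 in adventitial fibroblast-like cells, against 2.27 CPM over immune cells. Cycling general capillary cells (143) had it in 47.6% (39.1 to 56.1%) and the other general capillary cells (493) in 28.6% (24.6 to 32.8%), with medians of 2595 and 2098 detected genes. Ackr4, a scavenger of CCL19, CCL21 and CCL25, had 42 summed values, 35 of them in general capillary endothelial-like cells at 10.0 CPM, and none in immune cells, where 0 of 1373 alveolar macrophage-like cells allows a share of up to 0.218%.

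**Figure D3:**
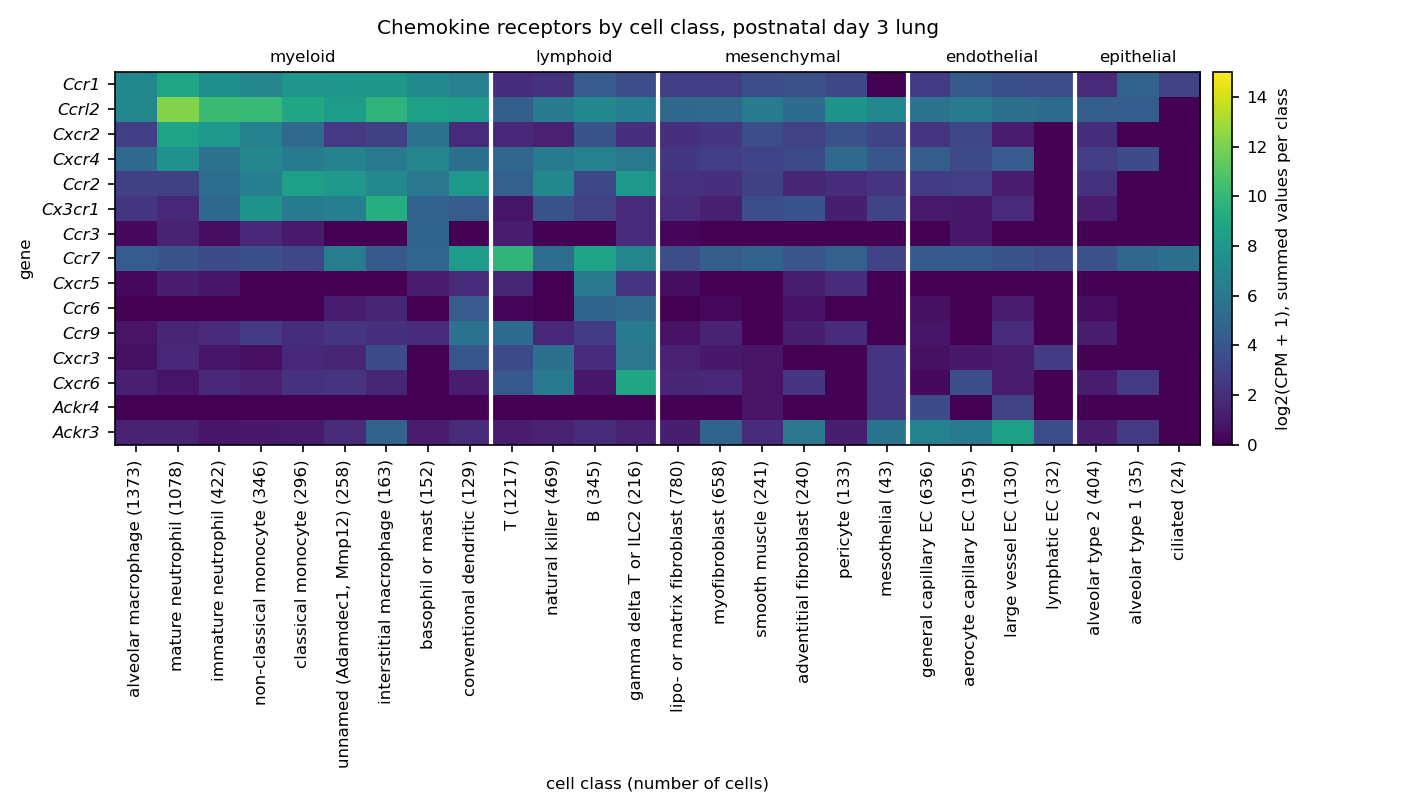
Heat map of the 15 receptors (rows) by cell class (columns, with the number of cells), coloured by log2(CPM + 1) of the class sums. Ccrl2, Ccr1 and Cxcr2 are brightest in mature neutrophil-like cells (4606, 443 and 421 CPM), Cxcr6 in gamma delta T or group 2 innate lymphoid-like cells (492 CPM), and Ackr3 in endothelial columns.

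The highest classes of ligands and receptors known to bind each other are set side by side here. Genes that form no pair can also differ in their highest class, and the share over all gene pairs was not computed. Cxcl12 was mostly endothelial with a mesenchymal part, Cxcr4 was highest in mature neutrophil-like cells, and Ackr3 was mostly endothelial. For the CXCR2 ligands, mature neutrophil-like cells carried both Cxcl2 and Cxcr2, and 55.8% of these cells had the receptor. Ccl2 and Ccl7 were highest in interstitial macrophage-like cells and Ccr2 in classical monocyte-like cells, with 133 CPM of Ccr2 in the macrophages themselves. Ccl21a lay in lymphatic endothelial-like cells, Ccr7 in T cell-like cells and Ackr4 in general capillary endothelial-like cells. Cxcl13 lay in smooth muscle-like and Cxcr5 in B cell-like cells. Cxcl16 lay in conventional dendritic-like and Cxcr6 in gamma delta T or group 2 innate lymphoid-like cells. Ccl11 was adventitial, Ccl24 was in interstitial macrophage-like cells, and their receptor gene Ccr3 was highest in basophil or mast-like cells. Cx3cl1 was highest in aerocyte capillary endothelial-like and Cx3cr1 in interstitial macrophage-like cells. Ccl3 was highest in basophil or mast-like cells, Ccl5 in natural killer-like cells and their receptor gene Ccr1 in mature neutrophil-like cells. Cxcl9 and Cxcl10 faced Cxcr3, which was highest in the same gamma delta T or group 2 innate lymphoid-like class as Cxcl10. That class led for Cxcl10 by only 1.16-fold. At a resolution of 2, with a stricter cell filter and with the members among the variable genes, Cxcl10 was highest elsewhere. It was then 207 to 222 CPM in the cluster led by Prg4 and Fcna.

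Across the 26 classes, the patterns most alike (Pearson r of log2(CPM + 1), over classes of 1 library) were Cxcl2 with Ccr1 at 0.90, Ccl17 with Ccl22 at 0.89, and Ccl3 with Ccl4 at 0.88. These are descriptions, since all classes share a library.

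Related genes outside the 38 were read from fixed lists, to be set against the 11.8% of all genes that were at least 2-fold higher and the 30.9% at least 2-fold lower in immune cells. Of 16 other ligands, 9 had at least 20 summed values, and 4 of these were at least 2-fold higher and 2 at least 2-fold lower in immune cells. Pf4, a platelet and macrophage chemokine, stood at 4014 CPM and Ccl12 at 423 CPM in interstitial macrophage-like cells. Ccl27a was highest in the 24 ciliated-like cells (45.0 CPM), close to smooth muscle-like cells (43.3 CPM). Ccl25 was highest in the 32 lymphatic endothelial-like cells (38.0 CPM), then in natural killer-like cells (25.7 CPM). Both maxima rest on few cells. Ccl19, Ccl20, Ccl21b, Ccl21c and Cxcl11 had no row here. Of 10 other receptors, 7 were measured, 2 of them at least 2-fold higher and 2 lower in immune cells. Ccr4 was highest in gamma delta T or group 2 innate lymphoid-like cells at 17.9 CPM, and the scavenger Ackr2 in aerocyte capillary endothelial-like cells at 184 CPM. Cmklr1 was nearly level in lipofibroblast or matrix fibroblast-like cells (49.2 CPM) and large vessel endothelial-like cells (48.9 CPM). Ccr1l1 had no row here.

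Of 20 genes that carry or dampen the receptor signal, 10 were at least 2-fold higher in immune cells, against 11.8% of all genes. None was at least 2-fold lower, against 30.9%, and the median log2 ratio was 1.04. Among the 10 were Arrb2, Grk2, Grk6, Rgs1 and Rgs2, genes of families that dampen the signal. Other genes of these families did not reach the 2-fold limit in either direction. Arrb1 stood at 26.8 CPM in immune and 53.8 CPM in other cells, Grk5 at 12.0 and 20.9, and Grk3 at 42.5 and 21.4 CPM. Rac2, the leukocyte Rac GTPase, stood at 716 CPM in immune and 43.2 CPM in other cells. Rac1, Gnai2 and Gnb2 were within 2-fold, at 347 and 256, 877 and 652, and 473 and 474 CPM. Of 7 genes for proteins that cut chemokines or shed their membrane forms, 4 were higher and 1 lower in immune cells: Mmp9 stood at 141 against 5.43 CPM, Mmp2 at 6.40 against 201 CPM, Adam17 at 83.4 against 39.9 CPM and Adam10 at 67.8 against 71.4 CPM.

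In the bulk library of sorted PDGFRA-positive cells, 26 of the 38 genes reached 1 CPM (68.4%), against 78.9% of the genes tested in the single-cell library. By the deposited TPM, a length-corrected unit in which genes can be compared, the leading members were Cxcl1 at 643 TPM, Ccl2 at 186, Cxcl10 at 154, Ccl11 at 117, Cxcl12 at 111 and Ccl7 at 98.0 TPM. Ackr3, at 75.5 TPM, led the receptors, followed by Ccrl2 at 23.4 and Cxcr4 at 14.2 TPM. In bulk CPM, Cxcl1 stood at 291 (288 to 293, an exact Poisson interval for counting error only), Cxcl12 at 113, Cxcl10 at 81.5, Ackr3 at 76.7, Ccl2 at 70.0 and Ccl11 at 59.9. In the single-cell library, Cxcl1, Ccl2 and Ccl7 had been highest in interstitial macrophage-like, Ccl11 in adventitial fibroblast-like and Cxcl12 and Ackr3 in large vessel endothelial-like cells.

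Set against fibroblast-like cells of the single-cell library (myofibroblast-like, lipofibroblast or matrix fibroblast-like and adventitial fibroblast-like cells, pooled), 10 of 37 genes were at least 2-fold higher in bulk (27.0%, against 20.4% of 13893 genes) and 14 at least 2-fold lower (37.8%, against 19.0%). The 10 were Ccl2, Ccl7, Ccl11, Cxcl1, Cxcl9, Cxcl10, Cxcl12, Cxcl14, Ackr3 and Cxcr4. On the log2(CPM + 1) scale, the differences were 2.54 for Ccl7 (36.5 CPM in bulk, 5.44 in fibroblast-like cells), 2.08 for Cxcl9, 2.01 for Cxcl14, 1.95 for Cxcl12 (113 and 28.5 CPM), 1.86 for Cxcl10 (81.5 and 21.7 CPM), 1.36 for Ccl2 (70.0 and 26.7 CPM) and 1.31 for Cxcl1 (291 and 117 CPM). Among the 14 lower genes were Ccl5 (1.14 and 101 CPM), Ccl6 (6.44 and 75.2 CPM), Ccr7 (2.13 and 15.2 CPM) and Cxcl15 (4.25 and 15.4 CPM). With bulk TPM in place of CPM, 10 of 37 were higher (10.6% of all genes) and 10 lower (27.0%, against 27.2% of all genes), so the lower share then lay at the background. The 10 higher genes were the same by TPM.

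Markers of immune cells were present in both, at different levels. The summed level of 8 genes of all leukocytes (such as Ptprc and Tyrobp) was 8388 CPM in immune cells, 388 CPM in fibroblast-like cells (4.62% of the immune level) and 63.8 CPM in bulk (0.760%), and the single markers in bulk lay between 0.200% and 2.09% of the immune level. Several leukocyte members lay in the same range in bulk: Ccl6 at 0.386%, Cxcr2 at 0.767%, Ccl9 at 0.814%, Ccr1 at 0.905% and Ccr7 at 1.01%, with Ccl5 below it at 0.0978%. In fibroblast-like cells these genes lay at 4.51% (Ccl6) to 8.62% (Ccl5) of the immune level. Others in bulk did not: Ccl2 and Ccl7 stood at 146% of the level in immune cells, Cxcl10 at 195%, Cxcl1 at 273% and Cxcl9 at 446%, and Cxcr4 at 17.1%. In fibroblast-like cells the same genes lay at 55.8% (Ccl2), 21.8% (Ccl7), 51.8% (Cxcl10), 110% (Cxcl1), 70.2% (Cxcl9) and 7.81% (Cxcr4). The immune level pools all immune classes: for Ccl2 it was 47.8 CPM, beside 1400 CPM in interstitial macrophage-like cells. Markers of interstitial macrophages (8 genes) summed to 27.5 CPM in bulk and 75.4 CPM in fibroblast-like cells. Erythroid genes were higher in bulk: 6 of them summed to 10744 CPM in bulk, with Hba-a1 at 4125 CPM, against 6.85 CPM in fibroblast-like cells. Among adventitial markers, Pi16 stood at 157 and 10.5 CPM, Col14a1 at 1202 and 261, Serpinf1 at 462 and 72.5 and Dcn at 896 and 401 CPM. Only Clec3b (297 and 384 CPM) and Mfap4 (4561 and 5898 CPM) were lower in bulk. The 9 genes of that list summed to 8835 and 7850 CPM, and Mfap4 was the largest part of both sums. The other mesenchymal lists differed too. Myofibroblast markers summed to 8057 CPM in bulk and 2282 CPM in fibroblast-like cells, with Tgfbi alone at 6057 and 1072 CPM. Smooth muscle markers summed to 6729 and 4276, pericyte markers to 290 and 206, and mesothelial markers to 23.1 and 16.0 CPM. Lipofibroblast or matrix fibroblast markers were lower in bulk, at 1381 and 4554 CPM. The 14 immediate-early and stress genes summed to 9093 CPM in bulk and 3814 CPM in fibroblast-like cells, and 9 of them were at least 2-fold higher in bulk. The part of these markers in the bulk differences was not tested, and genotype, sort, chemistry and counting differ between the libraries and cannot be told apart. Fewer cells of a type and less RNA per cell cannot be told apart in the bulk library either.

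**Figure D4:**
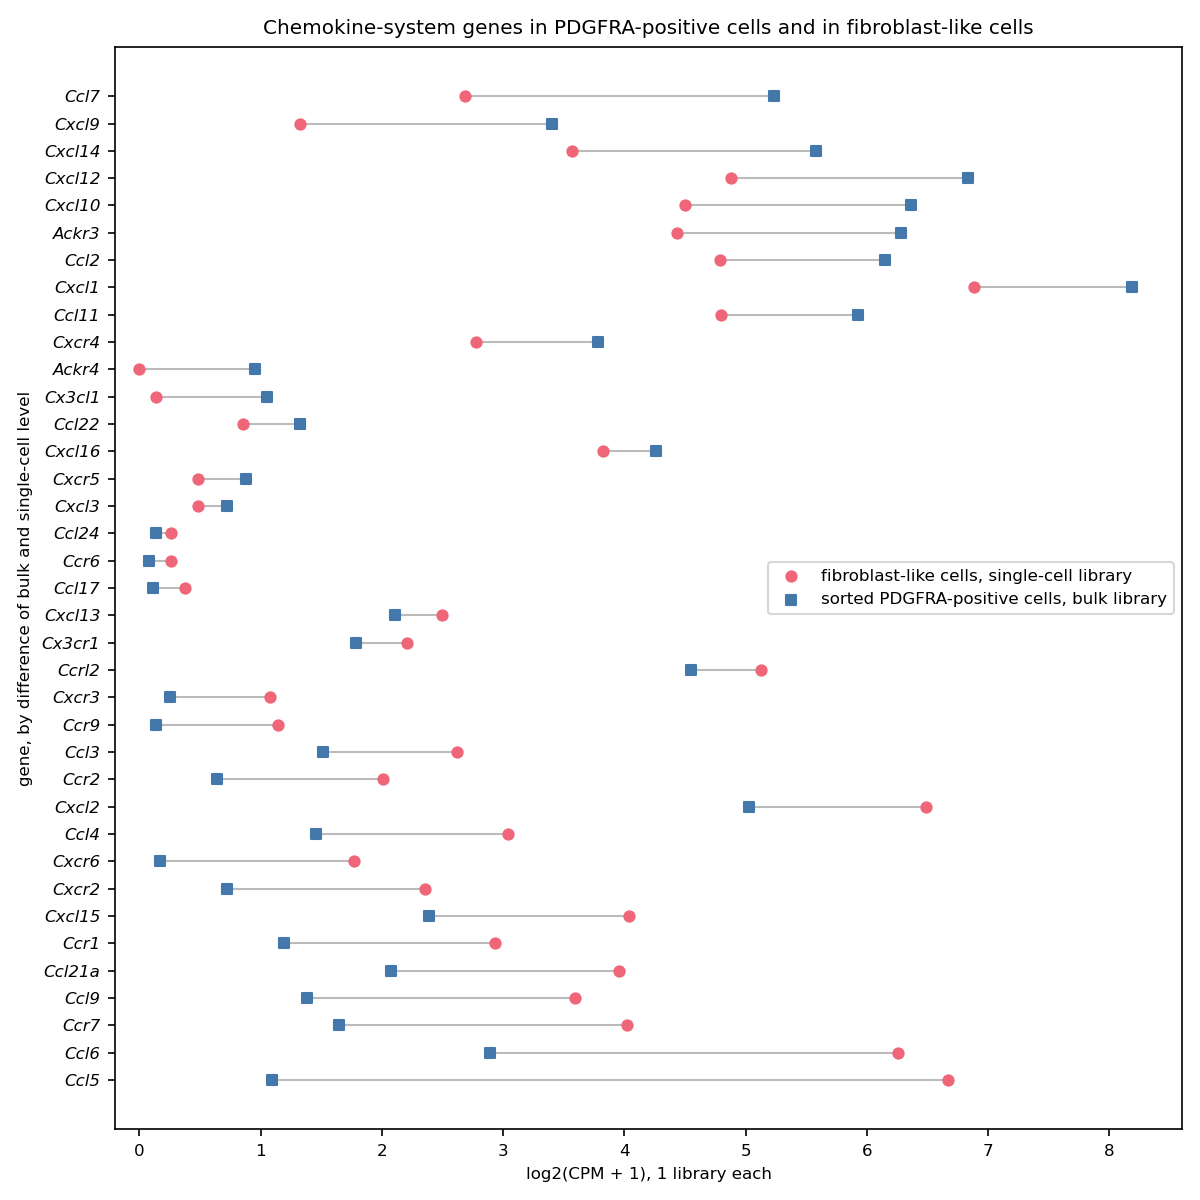
Levels of 37 members as log2(CPM + 1) in the bulk library of PDGFRA-positive cells (blue squares) and in pooled fibroblast-like cells of the single-cell library (red circles), ordered by the difference. Ccl7, Cxcl9, Cxcl14 and Cxcl12 are at the top with the bulk level higher, and Ccl5 (1.14 and 101 CPM) and Ccl6 are at the bottom.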

How the data were processed

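The 2 libraries and their groups follow the labels. Per the submitters' processing notes, Cell Ranger 5.0 and Seurat 3.2.2 were used for the single cells, and for the bulk library the notes name featureCounts, HISAT2, DESeq2, Trim Galore and the build mm10, with no order or settings; the build of the single-cell table and the strand setting are not given in the sources used here. The deposited single-cell values are whole numbers but were treated as a score, not as counts, because cell totals span 1.79-fold while detected genes per cell span 5.30-fold. The bulk table holds deposited expected counts, of which 15.9% are not whole, with TPM and FPKM by the authors (FPKM not used).

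Cells with at least 500 detected genes and at most 10% mitochondrial values were kept, doublets predicted (Scrublet in scanpy 1.11.5), and cells clustered on 2000 variable genes, 30 components and Leiden resolution 1, without the 38 genes. Clusters were named from fixed markers by a scoring rule set after the clusters were seen. Among types of 1 lineage with at least 0.7 of the best score, most markers in the 10 leading genes gave the name. Some clusters thus scored higher for another type. The Vwf-led large vessel cluster scored 3.77, and 5.00 for general capillary. The myofibroblast clusters scored 5.67 and 4.39, and 6.09 and 5.27 for smooth muscle. The immature neutrophil cluster scored 5.20, and 6.08 for mature neutrophil. Levels are sums per class scaled to 1000000; fold calls add 1 CPM. Genes needed 20 summed values, which all 38 had. Every member is named; from each other list the 4 genes with the highest library level are named, except 1 receptor gene that is not reported here. Positions and identifiers are from GENCODE M21. The promoter run was chosen after the promoters were read. The functions were tested on simulated data. The members and lists were chosen with earlier results of these data known.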

Additional observations from a re-analysis of the deposited data

How the results depend on the processing

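The counts of genes highest in an immune class (29, 16 and 13) did not move under any clustering alternative or with mean per-cell levels, and the counts of genes 2-fold higher or lower in immune cells stayed within 22 to 27 and 6 to 7. The count at least 4-fold above the next class ranged from 12 to 19. The median over members of the share of positive cells in the highest class was 48.7%, but 32.6% at a resolution of 0.5 and 36.9% with the members among the variable genes, where the interstitial macrophage-like class held 422 and 401 cells instead of 163; the cause was not tested further. In bulk, 14 of 38 genes reached 5 CPM (67.4% of all genes tested), and with a pseudocount of 5, 7 of 37 were at least 2-fold lower than in fibroblast-like cells (12.9% of all genes). The highest class was the same in every setting in which it was found for 29 of 38 genes; the exceptions were Ccl2, Ccl24, Cxcl1, Cxcl2, Cxcl3, Cxcl9, Cxcl10, Cxcl12 and Ccr7. No paired analysis was possible because each group holds 1 sample and no test was made. Depth limits the sparse genes most: Ackr4, Ccr3 and Cxcl9 rest on 42, 53 and 93 summed values.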

Other observations

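Finer clustering (resolution 2) divided the interstitial macrophage-like cells, and the pieces differed in their chemokines; these cells were singled out after their values were seen. A cluster of 30 cells led by Prg4 and Fcna, which stayed unnamed, had Cxcl2 in all cells at 15921 CPM, Cxcl1 at 4835 CPM in 96.7% and Ccl24 at 628 CPM in 86.7% (69.3 to 96.2%), and no cell with Cx3cr1, which allows a share of up to 10.0%. The other 133 cells had Cxcl2 at 3789 CPM, Cxcl1 at 674 CPM in 45.1%, Ccl24 at 189 CPM in 28.6% and Cx3cr1 at 781 CPM in 86.5% (79.5 to 91.8%). Ccl7 was higher in the larger cluster, at 938 against 88.2 CPM, and so was Cxcl16, at 292 against 22.1 CPM. Median detected genes were 2474 and 2252.5.

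At the same resolution a cluster of 216 mature neutrophil-like cells led by Retnlg and Prok2 had less Cxcr4 (60.7 CPM, 11.6% of cells) than the clusters of 496 and 438 cells (221 and 198 CPM, 34.3% and 34.9%), and more cells with Cxcr2 (70.4% against 46.2% and 61.2%), at medians of 933, 1016 and 1002 detected genes. Adventitial fibroblasts also divided. The 143 cells led by Dcn and Lum had Ccl11 at 242 CPM in 54.5% and Cxcl14 at 3.36 CPM in 2.10%, and 131 unnamed cells led by C1qtnf3 and Cldn11 had Ccl11 at 19.2 CPM in 1.53% and Cxcl14 at 69.1 CPM in 22.1%. These are single values from 1 library, with no test.

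The 175 kept cells that stayed in no class, led by Gm26917 and Serpina3g, had Ccl6 in 86.9%, Cxcl2 in 77.7% and Ccrl2 in 56.6% of cells, at a median of 1107 detected genes.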
